A study of Oryza sativa with 12 samples.

Results

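Ascorbate peroxidases reduce hydrogen peroxide to water with ascorbate as the electron donor, and the oxidized ascorbate is then reduced again by the other enzymes of the ascorbate-glutathione cycle. Rice encodes a small family of these haem enzymes, named OsAPX1 to OsAPX8, whose members are placed in the cytosol (OsAPX1 and OsAPX2), in peroxisomes (OsAPX3 and OsAPX4), in mitochondria (OsAPX5 and OsAPX6) and in plastids (OsAPX7 in the stroma and OsAPX8 at the thylakoid membrane). In leaves the plastid forms act on the peroxide made beside photosystem I, and the peroxisomal forms lie close to the peroxide made by photorespiration and fatty acid oxidation. The 8 genes were taken by their locus numbers from a table of 55986 genes, and all 8 were measured above 0 in every library. They lie on chromosomes 2, 3, 4, 7, 8 and 12 by their locus names, OsAPX3 and OsAPX7 both on chromosome 4, and OsAPX5 and OsAPX6 are direct neighbours on chromosome 12 in the RefSeq annotation.

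The libraries came from rice seedlings of the cultivar Nipponbare at 8 days after germination, either wild type (WT) or edited in OsNTL3, a gene for a membrane-associated NAC transcription factor. The edited plants carry the allele *ntl3-1*, made with CRISPR-Cas9 and predicted to encode a truncated protein, so that the mutant group stands for a single edited line in the same cultivar. For 3 h, seedlings either stayed at 29 ºC or were moved to 45 ºC (heat stress), and 3 libraries were made from each of the 4 groups, 12 in all. The labels say control and heat, and the temperatures, the hours and the allele name are those of the study's methods. By the methods, seedlings were collected for each replicate, and whether the replicates were grown apart is not given in the sources used here. The p-values below measure the spread between these libraries.

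Transcript levels are FPKM as deposited. By definition FPKM are fragment counts divided by transcript length and by the number of mapped reads, and so can be compared between genes. Whether the deposited values were scaled further between libraries is not given in the sources used here. The number of reads behind them is unknown. OsNTL3 itself was measured at 18.3 to 21.8 FPKM in WT and 10.3 to 14.1 FPKM in *ntl3-1* at 29 ºC, and at 57.5 to 87.5 against 28.4 to 34.1 FPKM at 45 ºC. The genotypes did not overlap at either temperature. The FPKM of all genes summed to 610880 to 698971 in the libraries at 29 ºC and to 1153023 to 1369236 in those at 45 ºC. For this reason levels are given below both as deposited and, where it matters, as a share of the library's summed FPKM. Of the 4 loci listed as markers of green shoot and the 4 listed as markers of root, all were detected in every group and 0 were at 0. The shoot loci summed to 18725 to 29163 FPKM in WT and 29146 to 38324 FPKM in *ntl3-1* over both temperatures. The root loci summed to 598 to 761 FPKM in WT and 437 to 671 FPKM in *ntl3-1* at 29 ºC, and to 91.5 to 195 and 91.3 to 121 FPKM at 45 ºC. All 4 root loci fell with heat stress in both genotypes (median log2 difference -2.23 in WT and -2.49 in *ntl3-1*), while 1 of the 4 shoot loci rose in WT and 0 changed in *ntl3-1* in the deposited FPKM, against 0 that rose and 2 that fell in each genotype after quantile normalization, which gives every library the same distribution of values. In bulk seedlings, fewer cells of a type and less RNA per cell cannot be told apart, and the part of the root loci's fall in the results below was not tested.

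After 3 h at 45 ºC the summed FPKM of the ascorbate peroxidase family was 3.03 times that at 29 ºC in WT and 2.85 times in *ntl3-1*, and its share of a library's summed FPKM was 1.54 and 1.51 times as high. On both measures OsAPX1 and OsAPX3 had higher values at 45 ºC in every library, while OsAPX2 and OsAPX8 were higher in every library only in FPKM. OsAPX3 rose 27.6-fold in WT and 30.0-fold in *ntl3-1*, OsAPX1 rose 6.63-fold and 5.38-fold, and OsAPX2 and OsAPX8 rose by smaller amounts in the deposited FPKM. After quantile normalization OsAPX2 fell in WT (log2 difference -0.29, adjusted p = 0.0312 from limma) and was at -0.10 in *ntl3-1* (adjusted p = 0.467), and OsAPX8 passed in neither genotype. OsAPX4 and OsAPX6 stayed near their level at 29 ºC in the deposited FPKM, and OsAPX5 fell in WT. These folds are on the log2(FPKM + 0.1) scale of limma, the linear model that was fitted to all genes and all 12 libraries with Benjamini-Hochberg adjustment over 31681 genes. A gene is said to have risen or fallen where its adjusted p was at most 0.05, and to be up- or down-regulated where its log2 difference was also at least 1 in size, the threshold of the study. In WT, 4 of the 8 genes rose and 1 fell, against 24.3% of all genes tested that rose and 24.3% that fell. Besides these, OsAPX7 had an unadjusted p under 0.05 in WT (0.0438 from limma), with a higher level. In *ntl3-1*, 4 rose and 0 fell, against 23.7% and 23.7%, and 5 of the 8 had an unadjusted p under 0.05, OsAPX5 with a lower level being the fifth. Past the fold threshold there were 2 up-regulated genes in WT and 3 in *ntl3-1*, where 13.2% and 12.9% of all genes were up-regulated. Without regard to a test, the deposited FPKM at 29 ºC and 45 ºC did not overlap for 6 of the 8 genes in each genotype. In WT 5 of these were higher at 45 ºC and 1 lower, beside 26.7% and 28.3% of all genes, and in *ntl3-1* 4 were higher and 2 lower, beside 27.9% and 29.5%. The median log2 difference of the 8 genes in the deposited FPKM was 0.58 in WT and 0.36 in *ntl3-1*, beside -0.04 for all genes tested in each genotype. After quantile normalization, 2 of the 8 genes rose and 3 fell in WT, and 2 rose and 1 fell in *ntl3-1*. The sign then turned for OsAPX2, OsAPX4, OsAPX6 and OsAPX8 in WT and for OsAPX2, OsAPX6, OsAPX7 and OsAPX8 in *ntl3-1*. The higher median of the family is therefore stated for the deposited FPKM only.

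**Figure D1:**
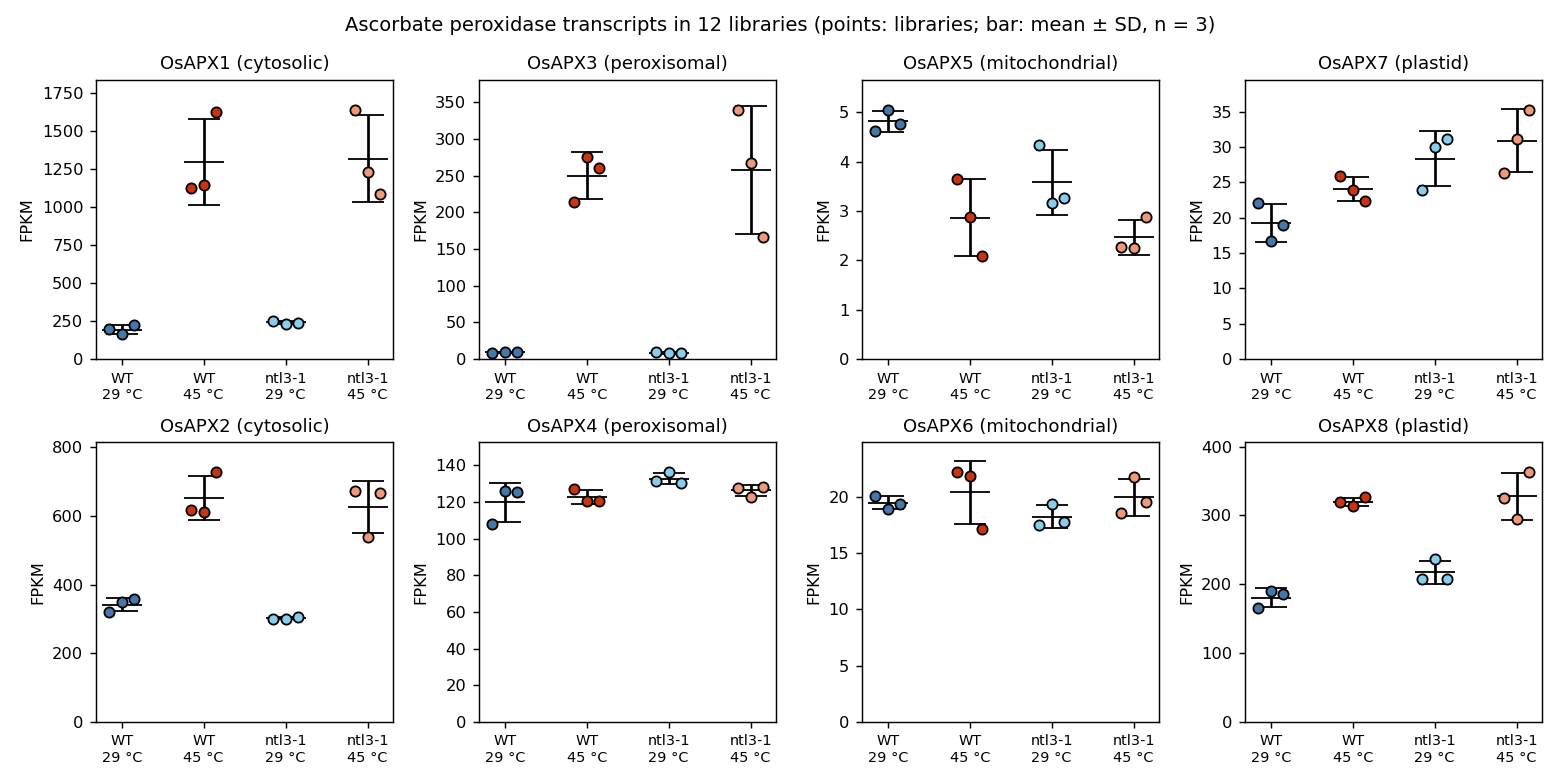
Each panel plots the FPKM of a gene (linear axis from 0) in the 12 libraries, by genotype and temperature, with points for libraries and the bar for the mean ± SD of 3 libraries. OsAPX3 moves from 7.60 to 9.41 FPKM at 29 ºC to 167 to 340.1 FPKM at 45 ºC, while the points of OsAPX4 and OsAPX6 at both temperatures lie at similar heights.

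The cytosolic enzymes are the main ascorbate peroxidases outside the organelles. In WT, OsAPX1 (LOC_Os03g17690) gave 199, 162 and 222 FPKM without heat stress, compared with 1124, 1145 and 1627 FPKM after it. The *ntl3-1* values were 253, 233 and 239 FPKM without and 1643, 1233 and 1087 FPKM with heat stress. Every heat-stressed library lay above every library at 29 ºC, and at 45 ºC the genotypes overlapped, each with a single library well above the other two. The log2 difference with heat stress was 2.73 in WT (standard error 0.20, adjusted p = 1.56e-06 from limma), with 2.43 in *ntl3-1* (standard error 0.20, adjusted p = 3.9e-06 from limma). After quantile normalization these were 1.65 and 1.29, which is 3.14-fold and 2.45-fold, the lowest of the 21 alternatives. Among the 31681 genes tested, 1181 had a larger rise than OsAPX1 in WT and 1320 in *ntl3-1*. By mean FPKM, OsAPX1 moved from place 364 to place 112 among all genes in WT and from place 293 to place 114 in *ntl3-1*.

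OsAPX2 (LOC_Os07g49400), the other cytosolic gene, was the most abundant member at 29 ºC. The WT seedlings had 319.5, 349 and 357 FPKM when kept at 29 ºC and 619, 612 and 727 FPKM when moved to 45 ºC. For *ntl3-1* these were 300.1, 301 and 305 FPKM, and 674, 539 and 667 FPKM. As deposited, all libraries at 45 ºC exceeded all at 29 ºC, with a log2 difference of 0.93 in WT (standard error 0.12, adjusted p = 0.000115 from limma), with 1.04 in *ntl3-1* (standard error 0.12, adjusted p = 5.41e-05 from limma), and the sign turned after quantile normalization (-0.29 in WT and -0.10 in *ntl3-1*). As a share of the summed FPKM of a library, OsAPX2 stood at 0.0430% to 0.0571% at 29 ºC and at 0.0433% to 0.0558% at 45 ºC, so the ranges overlap. OsAPX1 rose on that measure too, from 0.0266% to 0.0396% at 29 ºC to 0.0910% to 0.121% at 45 ºC. The cytosolic pair exchanged places, OsAPX1 being 0.466 to 0.844 times as abundant as OsAPX2 in the 6 libraries at 29 ºC and 1.63 to 2.44 times as abundant in the 6 at 45 ºC.

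The peroxisomal pair differed most in its response. At 29 ºC, OsAPX3 (LOC_Os04g14680) was a weak transcript of 8.19, 9.18 and 9.41 FPKM in WT and of 9.16, 7.79 and 7.60 FPKM in *ntl3-1*. At 45 ºC the 3 WT libraries reached 215, 275 and 260.3 FPKM, those of *ntl3-1* 340.1, 268 and 167 FPKM. The temperatures lay far apart in both genotypes, and the heat-stressed *ntl3-1* libraries were spread on both sides of the WT ones. The log2 difference was 4.79 in WT (standard error 0.21, adjusted p = 4.82e-08 from limma), with 4.91 in *ntl3-1* (standard error 0.21, adjusted p = 4.76e-08 from limma), and over all 21 alternative settings it lay between 4.30 and 4.89 and between 4.45 and 5.19. Of the genes tested, 390 had a larger log2 difference in WT and 311 in *ntl3-1*. By mean FPKM, OsAPX3 moved from place 10100 to place 578 among all genes in WT and from place 10689 to place 539 in *ntl3-1*.

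OsAPX4 (LOC_Os08g43560), the other peroxisomal gene, had nearly level values in FPKM. WT gave 108, 126 and 126 FPKM without heat stress, and 127, 120.3 and 121 FPKM with it, which overlap. The unstressed *ntl3-1* libraries, at 132, 136 and 130.5 FPKM, lay just above the stressed ones, at 128, 123 and 128 FPKM. Its log2 difference was 0.04 in WT (95% confidence interval -0.13 to 0.21, adjusted p = 0.719 from limma) and -0.07 in *ntl3-1* (-0.24 to 0.10, adjusted p = 0.474 from limma). These intervals exclude a change by the fold threshold in either direction for the values as deposited. Relative to the rest of the library, its share went from 0.0176% to 0.0207% at 29 ºC to 0.00882% to 0.0107% at 45 ºC, and after quantile normalization it was lower at 45 ºC in both genotypes (-0.75, adjusted p = 4.38e-05 in WT, and -0.79, adjusted p = 3.33e-05 in *ntl3-1*, both from limma). OsAPX4 was 13.2 to 17.5 times as abundant as OsAPX3 at 29 ºC, and 0.375 to 0.770 times as abundant at 45 ºC.

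The mitochondrial genes were the weakest pair. OsAPX5 (LOC_Os12g07830), the least abundant member in all 4 groups, had 4.62, 5.05 and 4.77 FPKM in unstressed WT, and in stressed WT 3.64, 2.87 and 2.08 FPKM. For *ntl3-1* the unstressed libraries gave 4.34, 3.15 and 3.25 FPKM, the stressed ones 2.26, 2.26 and 2.87 FPKM. In both genotypes the temperatures did not overlap. The gene fell in WT (log2 difference -0.76, standard error 0.20, adjusted p = 0.0102 from limma), past the threshold under all 21 alternatives. In *ntl3-1* its log2 difference of -0.52 (standard error 0.20) had an adjusted p of 0.0603 from limma, which was at most 0.05 in 4 of 21 alternatives (range 0.0251 to 0.207), among them those without replicate 1 or replicate 3 of heat-stressed WT (0.0369 and 0.0251) and without replicate 3 of heat-stressed *ntl3-1* (0.0463).

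OsAPX6 (LOC_Os12g07820), its neighbour on the chromosome, gave 20.1, 19.0 and 19.4 FPKM for unstressed WT, followed by 22.2, 21.9 and 17.1 FPKM for stressed WT. Unstressed *ntl3-1* had 17.5, 19.4 and 17.7 FPKM, stressed *ntl3-1* 18.6, 21.7 and 19.6 FPKM. The groups overlapped in all of these comparisons of FPKM, and the log2 difference with heat stress was 0.06 in WT (95% confidence interval -0.17 to 0.29, adjusted p = 0.692 from limma) and 0.13 in *ntl3-1* (-0.10 to 0.36, adjusted p = 0.341 from limma), with the other sign after quantile normalization (-0.23 and -0.12). As a share of the library's summed FPKM, OsAPX6 went from 0.00263% to 0.00328% at 29 ºC to 0.00125% to 0.00190% at 45 ºC, without overlap. OsAPX6 was 3.75 to 6.15 times as abundant as OsAPX5 at 29 ºC and 6.10 to 9.63 times as abundant at 45 ºC. Reads of similar members of the family could be shared between them by the counting, which was not checked here.

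Of the plastid genes, that of the thylakoid enzyme was 6.67 to 11.4 times as abundant as that of the stromal enzyme in the libraries at 29 ºC and 9.51 to 14.6 times at 45 ºC. OsAPX7 (LOC_Os04g35520, stroma) was found at 22.1, 16.6 and 19.0 FPKM in unstressed WT, and 25.8, 23.8 and 22.4 FPKM under stress. The *ntl3-1* seedlings gave 23.9, 29.9 and 31.1 FPKM without and 26.3, 31.0 and 35.3 FPKM with stress. In FPKM the temperatures did not overlap in WT and overlapped in *ntl3-1*. The log2 difference with heat stress was 0.33 in WT (standard error 0.14, adjusted p = 0.0823 from limma, 0.0427 without replicate 1 of WT at 29 ºC). It was 0.12 in *ntl3-1* (standard error 0.14, adjusted p = 0.506 from limma). After quantile normalization the difference was 0.01 in WT (adjusted p = 0.968 from limma) and had the other sign in *ntl3-1* at -0.20. Relative to the rest of the library, OsAPX7 was lower at 45 ºC without overlap in each genotype. Its share went from 0.00272% to 0.00361% at 29 ºC to 0.00163% to 0.00213% at 45 ºC in WT. For *ntl3-1* the share went from 0.00373% to 0.00462% to 0.00194% to 0.00295%.

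OsAPX8 (LOC_Os02g34810, thylakoid) had 165, 190.0 and 186 FPKM in WT at the control temperature, against 319, 314 and 326 FPKM in stressed WT. In *ntl3-1* the control libraries gave 207, 237 and 208 FPKM while the stressed ones gave 325, 295 and 363 FPKM. As deposited, all libraries at 45 ºC lay above all at 29 ºC, with a log2 difference of 0.83 in WT (standard error 0.10, adjusted p = 7.96e-05 from limma), with 0.59 in *ntl3-1* (standard error 0.10, adjusted p = 0.000842 from limma), and after quantile normalization the sign turned and the adjusted p was above 0.05 (-0.13, adjusted p = 0.381, and -0.30, adjusted p = 0.0534). Its share of the summed FPKM in WT was 0.0270% to 0.0311% at 29 ºC and 0.0238% to 0.0272% at 45 ºC, which overlap. In *ntl3-1* the share was lower at 45 ºC without overlap, at 0.0308% to 0.0339% against 0.0237% to 0.0304%. The rise of OsAPX2 and OsAPX8 held in FPKM but not relative to the whole of a library, while that of OsAPX1 and OsAPX3 held on both measures. All these rises also held after median-of-ratios rescaling, which left the values close to those deposited and so is no separate measure. The median heat log2 difference of genes above 1 FPKM was 0.0003 (WT) and -0.006 (*ntl3-1*) as deposited. After that rescaling it was 0.016 and 0.015.

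**Figure D2:**
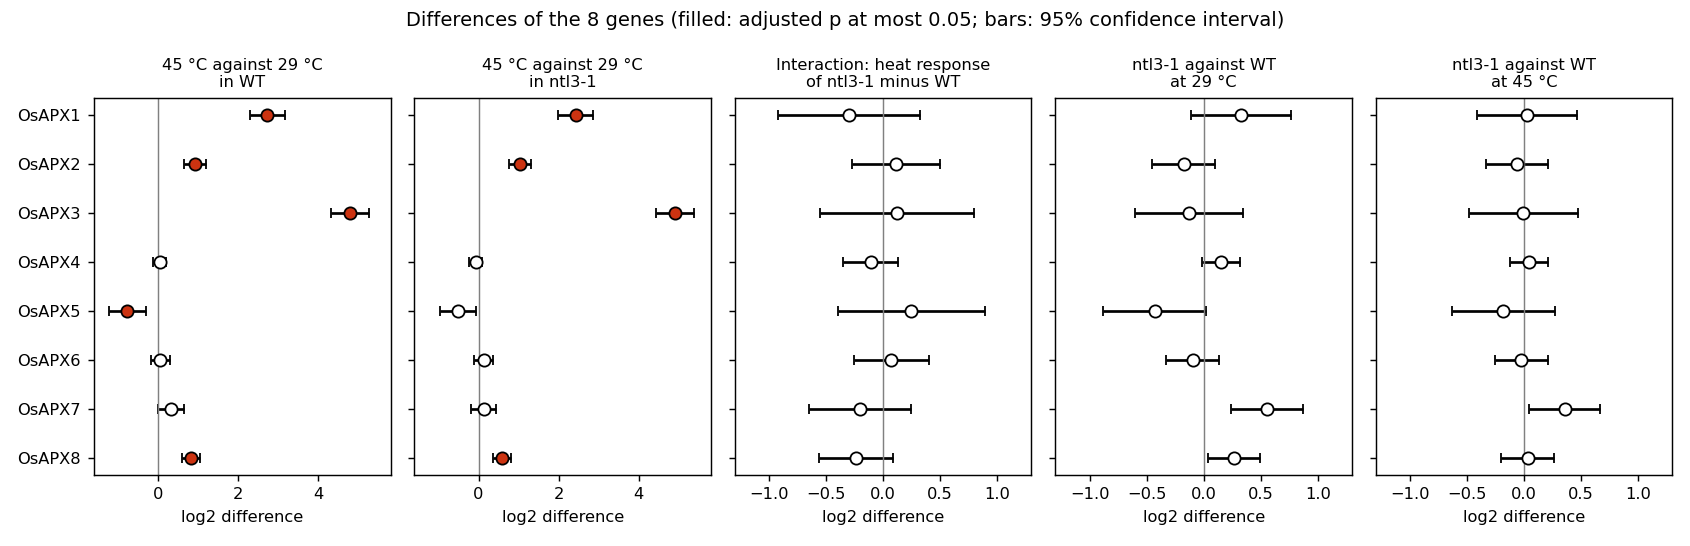
The log2 difference of each gene is plotted with its 95% confidence interval for the 5 comparisons, with filled points where the adjusted p from limma did not exceed 0.05. OsAPX1, OsAPX2, OsAPX3 and OsAPX8 are filled and positive in both heat panels (OsAPX2 and OsAPX8 turn negative after quantile normalization), OsAPX5 is filled and negative in WT, and no point is filled in the other 3 panels.

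The order of the members by mean FPKM was close to the same in WT and *ntl3-1* at each temperature and differed between the temperatures. At 29 ºC it ran OsAPX2, OsAPX1, OsAPX8 and OsAPX4 in both genotypes, where OsAPX1 and OsAPX8 overlapped in their libraries and the other neighbours did not. OsAPX6 and OsAPX7 followed, at 19.5 ± 0.582 and 19.2 ± 2.74 FPKM in WT (SD, n = 3), which did not differ beyond their spread, and in the other order in *ntl3-1* at 18.2 ± 1.02 and 28.3 ± 3.89 FPKM (SD, n = 3), which did not overlap. OsAPX3 came next to last and OsAPX5 last. At 45 ºC the order was OsAPX1, OsAPX2, OsAPX8, OsAPX3, OsAPX4, OsAPX7, OsAPX6 and OsAPX5 in both genotypes. The only neighbours that overlapped there were OsAPX8 and OsAPX3 in *ntl3-1*, at 328 ± 33.8 and 258 ± 87.1 FPKM (SD, n = 3).

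Added together, the 8 genes reached 889 ± 49.1 FPKM in WT and 952 ± 13.5 FPKM in *ntl3-1* at 29 ºC, and 2691 ± 357 and 2713 ± 386 FPKM at 45 ºC (SD, n = 3 each). This was 3.03 times the level at 29 ºC in WT and 2.85 times in *ntl3-1*. As a share of the summed FPKM of a library the family went from 0.138% to 0.148% in the libraries at 29 ºC to 0.202% to 0.233% in those at 45 ºC, and the ranges do not overlap. OsAPX1 alone made up 61.3% of the family's gain in FPKM in each genotype, OsAPX2 17.3% in WT and 18.4% in *ntl3-1*, OsAPX3 13.4% and 14.2%, and OsAPX8 7.72% and 6.27%. Of the gain in mean share of the library, OsAPX1 made up 96.6% in WT and 94.1% in *ntl3-1* and OsAPX3 24.9% and 26.4%, while OsAPX2 counted for -1.98% and 6.35%, OsAPX8 for -3.58% and -8.80%, and OsAPX4 for -11.9% and -13.6%. The cytosolic genes went from 55.2% to 61.3% of the family at 29 ºC to 69.9% to 75.9% at 45 ºC, and the plastid genes from 21.8% to 27.6% to 11.1% to 16.1%. The peroxisomal genes together kept a similar share, 13.7% to 15.4% at 29 ºC and 11.9% to 15.7% at 45 ºC, but its make-up changed. OsAPX4 held 12.7% to 14.4% of the family and OsAPX3 0.805% to 1.05% at 29 ºC, against 3.89% to 5.20% and 6.75% to 10.9% at 45 ºC.

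Whether the heat response depended on the edited gene was tested through the genotype-by-temperature interaction, the log2 difference of *ntl3-1* minus that of WT. Of the 8 genes, 0 passed an adjusted p of 0.05 in limma and 0 had an unadjusted p under 0.05, against 0.24% of all genes tested with an interaction at the adjusted threshold. The values ran from -0.30 for OsAPX1 to 0.25 for OsAPX5, with adjusted p from 0.811 to 0.982 (limma). The intervals still leave room for differences, since the 95% confidence interval was -0.92 to 0.32 for OsAPX1, -0.27 to 0.50 for OsAPX2, -0.55 to 0.79 for OsAPX3 and -0.56 to 0.09 for OsAPX8. The narrowest was that of OsAPX4, -0.35 to 0.13. For each of the 8 genes an interaction of 1 in size lay outside its interval.

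At 29 ºC, 0 of the 8 genes differed between *ntl3-1* and WT at the adjusted threshold in limma and 2 had an unadjusted p under 0.05, where 2.75% of all genes tested passed the adjusted threshold. The largest difference was that of OsAPX7, which was higher in each *ntl3-1* library than in any WT library, at 28.3 ± 3.89 against 19.2 ± 2.74 FPKM (SD, n = 3). Its log2 difference of 0.56 (standard error 0.14, 95% confidence interval 0.24 to 0.87) had an adjusted p of 0.0755 from limma, which was above 0.05 in all 21 alternatives (range 0.0511 to 0.265). In FPKM the groups did not overlap for 6 of the 8 genes. Of these, 4 were higher in *ntl3-1* (OsAPX1, OsAPX4, OsAPX7 and OsAPX8) and 2 lower (OsAPX2 and OsAPX5), beside 13.1% and 12.6% of all genes tested. As a share of the library's summed FPKM, OsAPX4 did overlap, at 0.0176% to 0.0207% in WT and 0.0194% to 0.0206% in *ntl3-1*. So did OsAPX8, at 0.0270% to 0.0311% and 0.0308% to 0.0339%. OsAPX8 had the second unadjusted p under 0.05, with a log2 difference of 0.27 (standard error 0.10, adjusted p = 0.272 from limma). The 4 green shoot loci had a median log2 difference of 0.59 in the same comparison, with 0 of 4 past the threshold, and the 4 root loci a median of -0.39, also with 0 of 4. The part of these loci in the values of the plastid genes was not tested. OsAPX5 had the largest difference in the other direction, -0.43 (standard error 0.20, adjusted p = 0.402 from limma).

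At 45 ºC, again 0 of the 8 genes passed in limma and 1 had an unadjusted p under 0.05, beside 1.62% of all genes tested at the adjusted threshold. In FPKM, OsAPX7 was once more higher in all *ntl3-1* libraries, at 30.9 ± 4.46 against 24.0 ± 1.73 FPKM (SD, n = 3). Its log2 difference was 0.35 (standard error 0.14, adjusted p = 0.297 from limma). As a share of the library's summed FPKM the genotypes overlapped, at 0.00163% to 0.00213% in WT and 0.00194% to 0.00295% in *ntl3-1*. The green shoot loci had a median of 0.47 and the root loci of -0.34 here, with 0 of 4 past the threshold in each list. Without overlap of the genotypes in FPKM there was 1 gene higher in *ntl3-1* and 0 lower, beside 7.24% and 6.71% of all genes tested. The other 7 genes overlapped and had log2 differences from -0.18 for OsAPX5 to 0.04 for OsAPX4. For the strongly heat-responsive genes the 95% confidence interval of the genotype difference was -0.41 to 0.46 for OsAPX1 and -0.48 to 0.47 for OsAPX3.

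The other enzymes of the pathway were followed in lists of loci compiled from general knowledge of rice gene numbering. The files do not name these loci, so they are given by locus number and list only. Of 10 loci listed for the recycling of ascorbate and glutathione (monodehydroascorbate, dehydroascorbate and glutathione reductases), 4 rose and 1 fell with heat stress in WT, and also 4 and 1 in *ntl3-1*, with medians of 0.23 and 0.06 on the log2 scale (-0.06 and -0.05 after quantile normalization, with 3 rising and 4 falling in WT and 2 and 4 in *ntl3-1*). Of all genes tested, 24.3% rose and 24.3% fell in WT and 23.7% and 23.7% in *ntl3-1*, with a median of -0.04 in each. LOC_Os05g02530, which the study's gene list describes by a glutathione S-transferase N-terminal domain, rose most. Its unstressed level was 84.7 ± 7.76 FPKM in WT and 82.4 ± 2.56 FPKM in *ntl3-1*, its stressed level 571 ± 67.7 and 584 ± 66.9 FPKM (SD, n = 3). LOC_Os08g44340 followed, with 22.4 ± 1.20 and 22.4 ± 5.81 FPKM unstressed, and 60.4 ± 10.5 and 55.0 ± 5.63 FPKM stressed (WT and *ntl3-1*, SD, n = 3). Their log2 differences were 2.75 and 1.41 for WT, 2.82 and 1.32 for *ntl3-1* (adjusted p at most 0.000146 in limma), and both also rose after quantile normalization, LOC_Os05g02530 by 1.82 in WT and 1.98 in *ntl3-1* and LOC_Os08g44340 by 1.00 and 0.94. The remaining 8 lay between -0.27 and 0.80 in WT.

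Of 9 loci listed for ascorbate synthesis, 3 rose and 2 fell in WT and 3 rose and 3 fell in *ntl3-1*, with medians of 0.02 and -0.09 (-0.44 and -0.41 after quantile normalization, with 2 rising and 5 falling in each genotype), beside 24.3% rising and 24.3% falling in WT and 23.7% and 23.7% in *ntl3-1* among all genes tested, with a median of -0.04 in each. LOC_Os12g08810, listed for GDP-L-galactose phosphorylase activity, the step at which the plant pathway commits to ascorbate, rose most. It had 83.1 ± 6.41 and 99.3 ± 8.66 FPKM unstressed, compared with 247 ± 21.6 and 237 ± 17.7 FPKM stressed (WT and *ntl3-1*, SD, n = 3). Its log2 difference was 1.57 (adjusted p = 7.13e-07 from limma) in WT and 1.25 (adjusted p = 3.89e-06 from limma) in *ntl3-1*, and it was 0.76 and 0.51 after quantile normalization. In both lists, 0 loci had an interaction of genotype and temperature at an adjusted p of 0.05 in limma, and the adjusted p ran from 0.590 upwards. Between the genotypes, 0 loci differed at 29 ºC, and at 45 ºC 1 locus of the synthesis list, LOC_Os03g39000, was higher in *ntl3-1* (log2 difference 0.58, adjusted p = 0.0369 from limma).

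**Figure D3:**
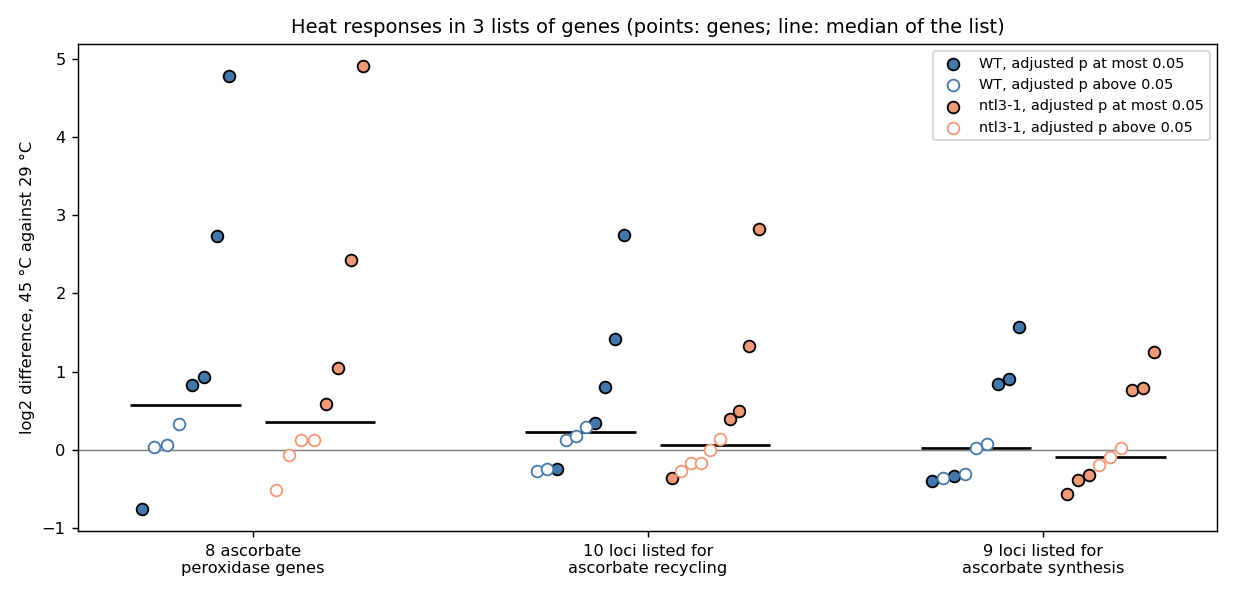
Points give the log2 difference between 45 ºC and 29 ºC of each gene in the 3 lists, for WT and *ntl3-1*, filled where the adjusted p from limma did not exceed 0.05, with a line at the median of each list in the deposited FPKM. The highest points are 4.91 for OsAPX3, 2.82 for the recycling list and 1.57 for the synthesis list.

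Among 13889 genes outside the family with a mean of at least 5 FPKM, those whose levels followed OsAPX3 most closely over the 12 libraries were LOC_Os05g02530 (r = 0.998 on the log2 scale), LOC_Os03g53910 (r = 0.998) and LOC_Os04g05010 (r = 0.998). The first of these is the locus that rose most in the recycling list above. LOC_Os03g53910, described as a protein with tetratricopeptide repeats, averaged 13.7 FPKM unstressed and 245 FPKM stressed in WT (11.7 and 227 FPKM in *ntl3-1*). LOC_Os04g05010 averaged 10.6 and 419 FPKM in WT (8.89 and 380.0 FPKM in *ntl3-1*). Those closest to OsAPX5, the member with the largest fall, were LOC_Os11g14190 (r = 0.964), LOC_Os01g54860 (r = 0.958) and LOC_Os04g57420 (r = 0.957). The 12 points of each correlation share their libraries and fall into a cluster at 29 ºC and another at 45 ºC, so r is given as a description.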

How the data were processed

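Total RNA of 12 seedling libraries was sequenced by the authors on an Illumina platform. Per the paper, the authors trimmed reads with SeqPrep and Sickle, mapped them with TopHat (MSU rice annotation) and quantified genes with RSEM as FPKM, the deposited unit used here. The labels name Bowtie 0.12.2 and a mouse build, which cannot apply to a rice table. Whether the FPKM were scaled further between libraries is not given in the sources used here, and no counts were used, so the depth is unknown and edgeR, the authors' test, was not run. Values were transformed to log2(FPKM + 0.1), which understates the change of weak genes, and 31681 of 55986 genes above 0 in at least 3 libraries were tested with limma 3.58.1 in R 4.3.3 (1 mean per group, 8 residual degrees of freedom, variances following the mean, two-sided p-values, Benjamini-Hochberg adjustment per comparison). The procedure was tested on simulated data in which most genes did not change and no shift of whole libraries was set. That test does not bear on the choice of scaling. All 8 members are named, with the 3 genes most like the member with the largest rise and the largest fall. The members, lists and tests were chosen with earlier results of these data known. The names OsAPX1 to OsAPX8 matched 8 of 8 genes in RefSeq synonyms (assembly ASM3414082v1), on the same chromosomes as the loci, and its coordinates were not used because the builds differ. Protein and promoter sequences were not analysed here. Alternatives changed the added constant (1 or 0.01 FPKM), the filter (1 FPKM in 3 libraries, or above 0 in any), the scaling (median-of-ratios or quantile), the model (comparisons fitted separately, a replicate block, no variance trend) and the libraries (each left out in turn).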

Additional observations from a re-analysis of the deposited data

How the results depend on the processing

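Quantile normalization was the choice that moved the heat responses most. The median log2 difference of the genes above 1 FPKM was 0.00 (WT) and -0.01 (*ntl3-1*) in the deposited values and -0.16 and -0.15 after it, and then 2 genes rose and 3 fell in WT, while 2 rose and 1 fell in *ntl3-1*. The heat responses that changed sign were OsAPX2 (-0.29), OsAPX4 (-0.75), OsAPX6 (-0.23) and OsAPX8 (-0.13) in WT and OsAPX2 (-0.10), OsAPX6 (-0.12), OsAPX7 (-0.20) and OsAPX8 (-0.30) in *ntl3-1*. The cause was not tested. OsAPX1 and OsAPX3 rose in both genotypes under all 21 alternatives, and OsAPX5 fell in WT under all 21. The number of genes that fell in *ntl3-1* was 1 with the filter at 1 FPKM, where fewer genes were tested, and 0 to 1 when each library was left out, as given for OsAPX5 above.

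The other sign changes concern differences that passed neither as deposited nor in the setting where the sign changed. Most of them came from leaving out a single library. At 45 ºC the genotype difference of OsAPX1 was -0.053 after quantile normalization, and that of OsAPX3 was 0.00019 after median-of-ratios rescaling. With each library left out, the heat response in WT ran from -0.037 to 0.077 for OsAPX4 and from -0.0079 to 0.18 for OsAPX6, and the interaction from -0.11 to 0.41 for OsAPX3 and from -0.047 to 0.14 for OsAPX6. The genotype difference at 45 ºC then ran from -0.14 to 0.20 for OsAPX1, from -0.12 to 0.044 for OsAPX2, from -0.24 to 0.28 for OsAPX3, from -0.39 to 0.0018 for OsAPX5, from -0.14 to 0.040 for OsAPX6 and from -0.045 to 0.10 for OsAPX8.

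Same-numbered replicates did not visibly deviate together (correlations of their deviations from the group means from -0.0890 to 0.0847 over 18 pairs). Pairs with other numbers ran from -0.147 to 0.158 over 36 pairs. With 3 libraries per group, these values cannot tell whether same-numbered replicates were grown or processed together. With the replicate number as a block, 4 genes rose and 1 fell in WT and 4 rose and 0 fell in *ntl3-1*, as without it. The depth behind the FPKM is unknown, so counting error could not be given for the weakest gene, OsAPX5.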

Other observations

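The spread between the libraries of a group differed among the members. At 45 ºC the coefficient of variation of the FPKM was 21.9% in WT and 21.8% in *ntl3-1* for OsAPX1 and 12.6% and 33.8% for OsAPX3, while it was 3.21% and 2.33% for OsAPX4, from 3 libraries each.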
